A study of Mus musculus with 4 samples.

Results

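The genes described here encode proinflammatory and regulatory cytokines: Tnf, Il1a, Il1b, Il1rn, Il6, Il10, Il12b, Il18 and Osm. Their rows were taken by symbol, and all 9 were found among the 19737 genes of the deposited matrix. The matrix holds 74758 cells sorted from the brains of 20 mice, 4 mice in each of 5 groups. All 20 mice, controls included, carried TfRmu/hu, a mouse transferrin receptor gene with the human apical domain knocked in. WT;TfRmu/hu mice received ATV:ISO or ATV:4D9. AppSAA;TfRmu/hu mice, which also carry the humanized AppSAA knock-in and develop amyloid plaques, received ATV:ISO, 4D9 or ATV:4D9. These groups are called WT and AppSAA below. The antibody 4D9 binds mouse TREM2, a lipid-sensing receptor of microglia. ATV is the antibody transport vehicle, an Fc region that binds the transferrin receptor and carries the antibody across the blood-brain barrier, and ATV:ISO is the isotype control on the same vehicle. Each mouse had 1 intravenous dose of 10 mg per kg and was killed 24 h later. The labels give no age. Per the reporting summary, mice listed under WT, AppSAA and TfRmu/hu together were male and 8 months old, while an entry for WT;TfRmu/hu alone covers both sexes and ages of 2 to 8 months, and which entry holds for these WT mice is not stated. The WT ATV:ISO mouse of replicate 4 was recorded as female. The mice were processed in 4 pools, each holding 1 mouse of every group, and the replicate number is the pool.

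Microglia are the resident macrophages of the brain and make most of the cytokines of its innate response. TNF, IL-1α, IL-1β and IL-6 are secreted or membrane-bound proteins that drive inflammation through their receptors on neighbouring cells, and transcription of their genes rises quickly after NF-κB is activated. IL-1β and IL-18 are made as inactive precursors that caspase-1 cleaves, so the mRNA measured here is only the first step of their release. IL-1 receptor antagonist, the product of Il1rn, occupies the IL-1 receptor without signalling. Il12b encodes the subunit shared by the heterodimeric cytokines that direct T helper cells, and its partner subunits have genes of their own. Oncostatin M, from Osm, belongs to the IL-6 family, and IL-10 dampens macrophage activation.

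The sequences just upstream of 6 of the genes are shown because Tnf, Il1a, Il1b, Il12b and Il1rn were called higher in both ATV:4D9 groups while Il6 was not. Osm was called higher in both as well, and no window of it is shown. Il10 and Il18, like Il6, were not called higher in both, and no window of either is shown. Each run is the 250 bases before the annotated start, written 5′ to 3′ on the gene's own strand, from RefSeq on GRCm38.p6. Capitals mark every match to the TATA box TATAAA, the AP-1 motif TGANTCA, the cyclic AMP response element (TGACG followed by TCA) or the NF-κB consensus, searched on both strands.
Tnf, chr17:35202008-35202257, minus strand: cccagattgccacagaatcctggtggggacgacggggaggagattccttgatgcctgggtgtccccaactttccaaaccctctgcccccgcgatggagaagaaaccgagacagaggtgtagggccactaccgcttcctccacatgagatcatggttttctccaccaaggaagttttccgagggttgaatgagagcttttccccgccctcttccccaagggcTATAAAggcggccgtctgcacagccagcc
Il1a, chr2:129309973-129310222, minus strand: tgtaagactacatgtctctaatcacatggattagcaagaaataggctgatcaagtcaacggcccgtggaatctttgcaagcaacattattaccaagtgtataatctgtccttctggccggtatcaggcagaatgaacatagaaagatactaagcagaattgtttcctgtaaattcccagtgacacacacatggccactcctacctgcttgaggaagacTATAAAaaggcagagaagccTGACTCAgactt
Il1b, chr2:129371140-129371389, minus strand: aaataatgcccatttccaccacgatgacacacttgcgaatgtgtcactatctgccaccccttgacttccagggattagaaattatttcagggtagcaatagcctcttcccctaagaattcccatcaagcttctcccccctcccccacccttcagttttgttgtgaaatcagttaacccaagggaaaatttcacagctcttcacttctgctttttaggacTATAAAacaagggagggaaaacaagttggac
Il12b, chr11:44399813-44400062, plus strand: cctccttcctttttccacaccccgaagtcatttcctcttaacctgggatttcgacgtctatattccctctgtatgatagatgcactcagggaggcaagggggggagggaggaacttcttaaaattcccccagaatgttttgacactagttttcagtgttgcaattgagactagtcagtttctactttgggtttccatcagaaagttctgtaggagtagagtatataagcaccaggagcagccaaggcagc
Il1rn, first of 3 annotated starts, chr2:24336610-24336859, plus strand: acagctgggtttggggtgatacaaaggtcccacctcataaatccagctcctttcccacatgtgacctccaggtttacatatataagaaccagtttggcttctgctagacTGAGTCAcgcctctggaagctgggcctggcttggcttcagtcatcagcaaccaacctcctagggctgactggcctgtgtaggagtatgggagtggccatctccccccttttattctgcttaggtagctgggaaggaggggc
Il6, chr5:30012864-30013113, plus strand: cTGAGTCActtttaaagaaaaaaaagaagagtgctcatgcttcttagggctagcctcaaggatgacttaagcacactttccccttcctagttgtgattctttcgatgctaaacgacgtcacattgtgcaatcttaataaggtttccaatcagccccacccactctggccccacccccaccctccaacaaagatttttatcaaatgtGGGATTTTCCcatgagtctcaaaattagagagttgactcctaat
The TATA box began 29 bases before the start in Tnf, 32 in Il1a and 31 in Il1b. Il1a also held an AP-1 match 12 bases before its start, Il1rn held one 141 bases before the start shown and Il6 one 249 bases before. The windows of the other annotated starts of Il1rn held no match. An NF-κB match, GGGATTTTCC, lay 44 bases before the start of Il6. None of the searched letters lay in the Il12b window. Only the exact letters TATAAA were searched for the TATA box, so other TATA-like stretches were not marked in any window. Among 32851 RefSeq windows, searched over the 250 bases before the start, 12.4% held TATAAA, 6.75% the AP-1 motif, 3.90% the NF-κB consensus and 1.55% the cyclic AMP response element. A match describes the letters of a window, and no binding was measured.

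The libraries held between 17150296 and 102446549 unique molecular identifiers (UMIs, each counting 1 captured mRNA molecule) per mouse, from 2193 to 6126 cells. The median cell held more UMIs after ATV:4D9: over the pooled cells of a group the medians were 7607.5 in WT ATV:ISO, 15200.5 in WT ATV:4D9, 9482 in AppSAA ATV:ISO, 9659 in AppSAA 4D9 and 15561.5 in AppSAA ATV:4D9. Levels are therefore given per 1000000 UMIs of a mouse (CPM), and where the direction turns on this scale the UMIs per 1000 cells are given as well. The log2 fold changes below also carry edgeR's scaling factors between mice, which CPM does not. A fold can therefore differ in size, or in sign where it is small, from the CPM beside it. In all 20 mice the cells were microglial by their markers, with a summed level of the microglial list of 13314 to 24528 CPM and no other list above 52.4 CPM. Just 8 cells, 0.0107% of all, held more UMIs of another list than of the microglial one. The microglial list was lower after ATV:4D9 than after ATV:ISO, at 16459 to 17718 CPM against 23409 to 24528 CPM in WT and 13314 to 14807 CPM against 15371 to 18577 CPM in AppSAA. In WT mice so were the oligodendrocyte list (15.1 to 27.8 against 28.3 to 42.2 CPM), the B cell list (16.6 to 25.8 against 26.9 to 30.5 CPM) and the neuron list (1.17 to 1.53 against 2.25 to 2.83 CPM). The endothelial list was lower too, at 9.54 to 13.1 CPM against 18.3 to 24.5 CPM in WT and 13.2 to 26.2 against 37.5 to 52.4 CPM in AppSAA, with Flt1 and Pecam1 giving nearly all of it and Cldn5 having 172 UMIs in all cells. Summed monocyte markers were slightly higher in AppSAA ATV:4D9 mice, at 10.0 to 13.7 CPM against 4.09 to 10.3 in the other mice. All 5 listed genes were measured. In the highest mouse of each gene, Plac8 reached 10.3 CPM and Ccr2 6.06 CPM, and Ly6c2, Chil3 and Vcan at most 2.67 CPM. How much each gene gave to the difference was not tested. The neutrophil list ran from 4.21 to 23.2 CPM and the T and NK list reached at most 0.995 CPM, with Ly6g at 22 UMIs in all cells. Pools 1 to 4 shared 543 cell barcodes.

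Tnf was the most abundant of the 9 genes by UMIs. It contributed 481618 UMIs and was found in 58.8% of all cells, Il1a contributed 287235 UMIs in 67.2% of cells and Il1b 238024 in 35.8%. Il18 with 39093 UMIs, Osm with 34318, Il6 with 8665, Il12b with 7090 and Il1rn with 4527 were sparser, and Il10 had only 354 UMIs in 293 cells. UMI levels of different genes also depend on how well each transcript's 3′ end is captured. Of the 8 genes other than Il10, Il12b was the most concentrated: 1035 cells (1.38%) held every one of its UMIs, and 95.9% of them lay in the top 1% of cells. Up to 148 Il12b UMIs were counted in 1 cell, and up to 255 for Il1b. The genes lie on 6 chromosomes in GRCm38, with Tnf at chr17:35199381-35202007, Il1a at chr2:129299610-129309972, Il1b at chr2:129364570-129371139 and Il1rn at chr2:24336853-24351494. The others are Il6 at chr5:30013114-30019981, Il10 at chr1:131019845-131024974, Il12b at chr11:44400063-44414033, Il18 at chr9:50554827-50581840 and Osm at chr11:4236420-4241026. Il1a, Il1b and Il18 overlap annotated genes of the opposite strand (Gm14023, Il1bos, and Bco2 with Tex12).

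The comparison in WT mice asks what the brain-penetrant antibody changes in the absence of amyloid. ATV:4D9 raised the IL-1 and TNF genes and Il12b and lowered the CPM of Il6 and Il18. Of the 9 genes, 6 rose and 2 fell by edgeR's quasi-likelihood test, beside 63.3% of all 14058 genes tested called in either direction. The median log2 fold change of the 9 was 1.01, against −0.05 over all genes tested. In a sum over all cells, fewer cells of a type and less RNA per cell cannot be told apart.

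Tnf, the founding member of its family, stood at 135, 73.8, 112 and 144 CPM in the WT ATV:ISO mice of pools 1 to 4. The WT ATV:4D9 mice had 597, 555, 956 and 767 CPM. No mouse of either group overlapped the other, and within pools the ratio ran from 4.41 to 8.52. The log2 fold change was 2.74 ± 0.248 (SE, n = 4 per group, adjusted p = 8.92e-09). Il1a, which encodes the alarmin IL-1α, had 219, 164, 219 and 179 CPM in WT ATV:ISO and 324, 373, 474 and 383 CPM in WT ATV:4D9, again without overlap. Its log2 fold change was 1.10 ± 0.148 (adjusted p = 2.1e-06). Il1b rose from 122, 87.5, 110 and 101 CPM to 158, 178, 264 and 186 CPM. The groups did not overlap, and the log2 fold change was 1.01 ± 0.167 (adjusted p = 2.67e-05).

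Il12b was near the floor of detection in WT ATV:ISO, with 13, 3, 3 and 27 UMIs, or 0.758, 0.146, 0.153 and 0.954 CPM. After ATV:4D9 it reached 5.37, 1.84, 9.72 and 13 CPM. Every treated mouse was above every control, with ratios of 7.09 to 63.3 within pools. The log2 fold change was 3.93 ± 0.805 (adjusted p = 2.58e-04), and 4.57 (adjusted p = 7.38e-04) without the WT ATV:ISO mouse of pool 4. Il1rn, the receptor antagonist, was sparse, with 0.525, 2.54, 0.819 and 1.17 CPM in WT ATV:ISO and 2.91, 1.36, 3.53 and 3.92 CPM in WT ATV:4D9. The groups overlapped, and the treated mouse of pool 2 was the lower of its pair. Its call, a log2 fold change of 1.32 ± 0.401 (adjusted p = 0.00735), was lost when only cells of 5000 to 25000 UMIs were summed (0.91, adjusted p = 0.0651).

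Il6 and Il18 went down on the CPM scale. Il6 had 14.6, 11.5, 12 and 15.9 CPM in WT ATV:ISO and 7.70, 8.39, 9.29 and 9.30 CPM in WT ATV:4D9, a log2 fold change of −0.53 ± 0.14 (adjusted p = 0.00272). Il18 had 51.1, 47.7, 46.8 and 51.5 CPM against 39.9, 34.4, 35.4 and 37.0 CPM, a log2 fold change of −0.31 ± 0.093 (adjusted p = 0.00678). Neither gene's groups overlapped on that scale. Counted per cell, the direction turned. Il18 had a mean of 425 UMIs per 1000 cells in WT ATV:ISO and 615 in WT ATV:4D9, with no overlap of the groups, and Il6 had 117 and 146, with overlap. The falls of both genes therefore held relative to all mRNA captured and not per cell, while Tnf was 12.2-fold, Il1a 3.91-fold, Il1b 3.67-fold and Il12b 30.0-fold higher per cell. Osm rose, with 27.6, 21.2, 25.0 and 26.8 CPM in controls and 32.4, 23.1, 35.9 and 32.6 CPM after ATV:4D9. Its groups overlapped in CPM but not per cell, where it was 2.42-fold higher. In CPM it was higher in 4 of 4 pools by 1.09 to 1.44 times, and the log2 fold change was 0.42 ± 0.14 (adjusted p = 0.0133). Il10 had 0, 8, 9 and 18 UMIs in the 4 WT ATV:ISO mice and 6, 2, 28 and 36 in the WT ATV:4D9 mice, too few for a fold.

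**Figure D1:**
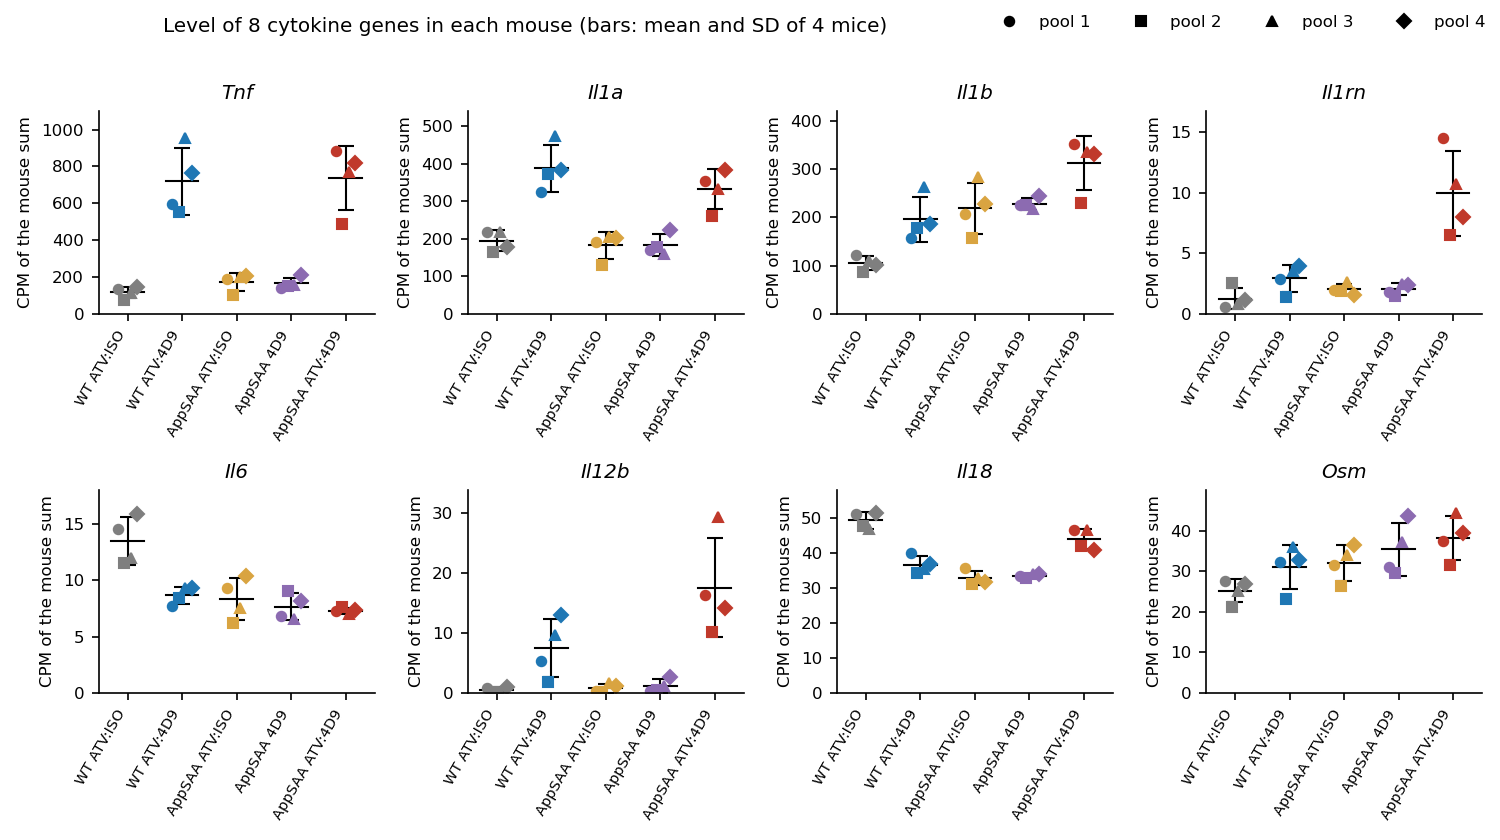
Level of each cytokine gene in every mouse, in CPM on linear axes that start at 0, for 8 genes and 5 groups of 4 mice. Points are mice, their shapes the pools, and bars the group mean and SD. The Tnf points of both ATV:4D9 groups, from 486 to 956 CPM, lie above all other mice, and those of AppSAA ATV:ISO and AppSAA 4D9 lie together.

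AppSAA mice given ATV:ISO were compared with WT mice given the same control to ask what the knock-in itself changed. Il1b, Tnf and Osm were higher and Il6 and Il18 lower. Several marker lists given above also differed between these groups without overlap: in AppSAA the microglial list was lower (15371 to 18577 against 23409 to 24528 CPM), as were the B cell list (17.3 to 20.4 against 26.9 to 30.5 CPM) and the neuron list (0.557 to 1.16 against 2.25 to 2.83 CPM), and the endothelial list was higher (37.5 to 52.4 against 18.3 to 24.5 CPM). Their part in the differences was not tested. Of the 9 genes, 3 rose and 2 fell, beside 28.2% of 14058 genes called, and the median log2 fold change was 0.53 against −0.06 over all genes. Il1b had 208, 157, 284 and 228 CPM in AppSAA ATV:ISO, above all 4 WT ATV:ISO mice given above, with ratios of 1.70 to 2.59 within pools. The log2 fold change was 1.23 ± 0.168 (adjusted p = 1.14e-05). Tnf had 188, 99.6, 199 and 206 CPM, and the mouse of pool 2 lay within the WT range. Tnf was nonetheless higher in 4 of 4 pools, by 1.35 to 1.77 times, with a log2 fold change of 0.75 ± 0.235 (adjusted p = 0.0207). That call lies near the threshold: it was lost without the WT ATV:ISO mouse of pool 2 (0.59, adjusted p = 0.0759) or 3 (0.72, 0.0535), and without the AppSAA ATV:ISO mouse of pool 1 (0.69, 0.0536), 3 (0.70, 0.0507) or 4 (0.68, 0.0565). Osm, at 31.4, 26.3, 34.1 and 36.4 CPM, overlapped the WT mice and had a log2 fold change of 0.53 ± 0.141 (adjusted p = 0.0075).

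Il6 and Il18 of these AppSAA mice lay below every WT ATV:ISO mouse in CPM. Il6 had 9.30, 6.17, 7.52 and 10.4 CPM (log2 fold change −0.51 ± 0.141, adjusted p = 0.00957). Il18 had 35.8, 31.0, 32.9 and 31.7 CPM (−0.40 ± 0.0934, adjusted p = 0.00274). Per 1000 cells, Il6 had 96.2 UMIs against 117 in WT and Il18 had 377 against 425, and both pairs of groups overlapped. Within every pool the AppSAA mouse was the lower for both genes on this scale. Il1a did not pass the test, with 190, 131, 206 and 202 CPM and a log2 fold change of 0.08 (adjusted p = 0.737). Its mean CPM was 182 against 195 in WT, and its mean per 1000 cells 2109 against 1678 UMIs, both with overlap. The AppSAA mouse was the higher in CPM in 1 of 4 pools, and per 1000 cells in every pool. Il1rn, at 1.94, 1.93, 2.65 and 1.57 CPM, gave 0.85 ± 0.414 (adjusted p = 0.136) and passed the test only without the WT ATV:ISO mouse of pool 2 (1.42, adjusted p = 0.0209). Il12b had 9, 2, 116 and 78 UMIs in the AppSAA mice of pools 1 to 4, from libraries of unequal depth. In CPM these mice ran from 0.0464 to 1.56 and the WT mice from 0.146 to 0.954, with overlap. The AppSAA mouse was the higher in 2 of 4 pools, and the ratio within pools ran from 0.317 to 10.2 (log2 fold change 0.84, adjusted p = 0.559).

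In AppSAA mice, ATV:4D9 again raised Tnf, Il1a, Il1b, Il12b and Il1rn, and here Il18 rose. With Osm, 7 of the 9 genes rose and 0 fell, beside 55.1% of 14058 genes called, and the median log2 fold change was 0.60 against −0.03 over all genes. Tnf had 882, 486, 768 and 817 CPM after ATV:4D9, above all 4 AppSAA ATV:ISO mice, with ratios of 3.86 to 4.88 within pools. Its log2 fold change was 2.18 ± 0.242 (adjusted p = 2.7e-07). Il1a reached 354, 261, 334 and 383 CPM, without overlap (0.95 ± 0.148, adjusted p = 1.95e-05). Il1b reached 353, 231, 336 and 331 CPM, overlapped the ATV:ISO mice and was 1.18 to 1.70 times higher within pools (0.60 ± 0.165, adjusted p = 0.00434). Counted per cell, Tnf was 6.38-fold, Il1a 2.73-fold and Il1b 2.12-fold higher, each without overlap.

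Il12b had its highest group mean here, 17.5 ± 8.27 CPM (SD, n = 4), from 16.3, 10.2, 29.3 and 14.3 CPM against 0.250, 0.0464, 1.56 and 1.17 CPM in AppSAA ATV:ISO. The groups did not overlap, and the log2 fold change was 4.46 ± 0.661 (adjusted p = 1.07e-05). Il1rn reached 14.5, 6.55, 10.7 and 7.97 CPM, above every other mouse of the study, with a log2 fold change of 2.39 ± 0.341 (adjusted p = 6.9e-06). The summed monocyte list was also slightly higher in these mice. The 1200 cells of all mice with at least 2 monocyte-marker UMIs, 1.61% of cells, held 11.3% of all Il1rn UMIs, 8.97% of Il12b UMIs and 3.42% of Tnf UMIs. The 5242 cells with at least 2 endothelial-marker UMIs, 7.01% of cells, held 20.2%, 11.8% and 7.71%. The 5590 cells with at least 2 oligodendrocyte-marker UMIs, 7.48% of cells, held 11.3%, 13.5% and 10.1%. All these cells were picked on unthinned counts, so cells with more UMIs qualified more readily and also held more UMIs of any gene. The shares of UMIs were not corrected for this. The part of these cells in the differences was not tested.

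Il18 rose in AppSAA mice where its CPM had fallen in WT mice. It had 46.6, 42.0, 46.5 and 40.9 CPM after ATV:4D9, above all 4 AppSAA ATV:ISO mice, with ratios of 1.29 to 1.41 within pools. The log2 fold change was 0.50 ± 0.0924 (adjusted p = 1.38e-04). Per cell its mean went from 377 to 754 UMIs per 1000 cells, a ratio of 2.00. In WT mice it had risen per cell too, from 425 to 615. Il6 did not pass the test, with 7.29, 7.62, 6.97 and 7.34 CPM (−0.11, adjusted p = 0.509), and its mean per 1000 cells was 125 UMIs against 96.2 in ATV:ISO, with overlap. Osm, at 37.5, 31.5, 44.3 and 39.5 CPM, overlapped the controls on that scale but not per cell, where it was 1.77-fold higher. It passed the test by little (0.33 ± 0.136, adjusted p = 0.0477). Its call was lost with relative log expression factors (adjusted p = 0.0502), with limma-voom (0.0533), in cells of 5000 to 25000 UMIs (0.145) and without the AppSAA ATV:ISO mouse of pool 1 (0.0676), 2 (0.139) or 3 (0.0749) or the AppSAA ATV:4D9 mouse of pool 1 (0.113), 3 (0.138) or 4 (0.0584). Il10 had 2, 5, 78 and 30 UMIs in AppSAA ATV:ISO and 9, 0, 16 and 57 in AppSAA ATV:4D9. By pool, over all groups, Il10 had 20, 19, 154 and 161 UMIs.

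The antibody without the vehicle was tested at the same dose and time in AppSAA mice. Its control, ATV:ISO, carries the vehicle, so TREM2 binding and the vehicle both differ between these groups and cannot be told apart. None of the 9 genes was called between 4D9 and ATV:ISO, beside 0% of 14058 genes called by edgeR, where 79 genes and 0 of the 9 had an unadjusted p under 0.05. With the pool as a block, 0 genes were called, and 280 genes and 0 of the 9 had an unadjusted p under 0.05. limma-voom called 0 genes and DESeq2 called 1, Trap1a. Tnf had 143, 152, 154 and 211 CPM, Il1a 171, 179, 160 and 225 CPM and Il1b 226, 225, 217 and 244 CPM. The 95% intervals of the log2 difference are from the fit without the block. They ran from −0.54 to 0.43 for Tnf, from −0.28 to 0.33 for Il1a, from −0.27 to 0.42 for Il1b, from −0.16 to 0.23 for Il18 and from −0.14 to 0.44 for Osm. The interval for Il6 ran from −0.40 to 0.18. The sparse genes Il1rn and Il12b were bounded less tightly, from −0.73 to 0.77 and from −1.03 to 2.02.

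The comparison of ATV:4D9 with 4D9 addresses the vehicle. Of the 9 genes, 6 rose and 0 fell, beside 54.3% of 14058 genes called. It shares the AppSAA ATV:4D9 mice with the comparison against ATV:ISO, so its values are no separate evidence. After ATV:4D9 the microglial list (13314 to 14807 against 17094 to 17432 CPM) and the endothelial list (13.2 to 26.2 against 39.0 to 49.4 CPM) were lower. The monocyte list was higher, at 10.0 to 13.7 against 5.61 to 8.86 CPM. None of the 3 overlapped, and their part in the differences was not tested. Tnf differed by 2.24 ± 0.243 (log2, adjusted p = 2.02e-07), Il12b by 3.97 ± 0.652 (adjusted p = 3.73e-05) and Il1rn by 2.37 ± 0.346 (adjusted p = 9.54e-06), each without overlap of the groups. Il12b in AppSAA 4D9 mice was 0.218, 0.499, 1.05 and 2.70 CPM, and the difference was 4.83 without the mouse of pool 4. Il1rn in these mice was 1.82, 1.45, 2.50 and 2.39 CPM, and Il18 was 33.4, 32.9, 33.8 and 33.8 CPM. Il18 differed by 0.46 ± 0.0926 (adjusted p = 3.27e-04), without overlap, and Il1a by 0.92 (adjusted p = 2.82e-05). Il1b differed by 0.52 ± 0.165 (adjusted p = 0.0111), with overlap, and by 0.41 (adjusted p = 0.0529) without the AppSAA ATV:4D9 mouse of pool 1. Osm, at 31.0, 29.6, 37.2 and 43.7 CPM in AppSAA 4D9, did not pass (0.18, adjusted p = 0.29), and neither did Il6, at 6.87, 9.05, 6.52 and 8.20 CPM (adjusted p = 0.98), although per 1000 cells it had 125 UMIs after ATV:4D9 and 91.7 after 4D9, without overlap.

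**Figure D2:**
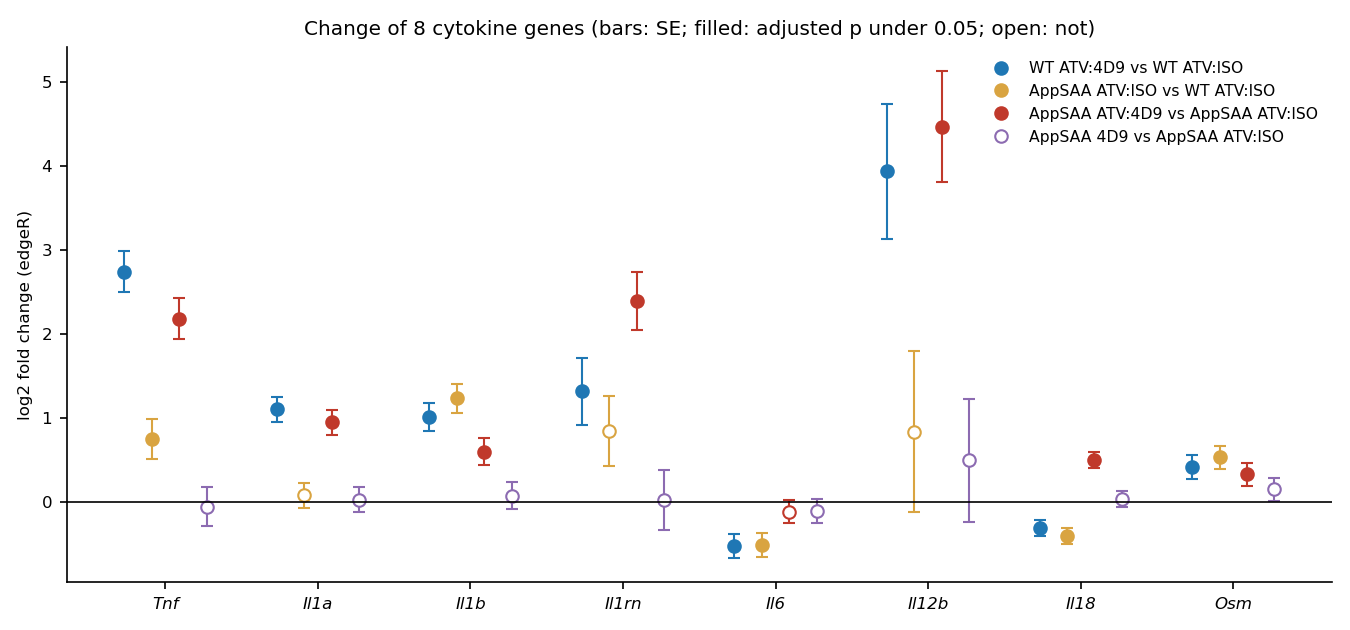
Log2 fold change of each cytokine gene (y axis, 8 genes along the x axis) in 4 comparisons between groups of 4 mice, with bars for the SE. Filled points had an adjusted p under 0.05 by edgeR and open points did not. All 8 points of AppSAA 4D9 against AppSAA ATV:ISO are open.

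Between genotypes under ATV:4D9, AppSAA mice had more Il1rn, Il1b, Il18 and Osm, while Tnf and Il1a did not pass the test. These 4 of 9 genes rose and 0 fell, beside 11.8% of 14058 genes called. Some marker lists also differed between these groups without overlap. In AppSAA the microglial list was lower, at 13314 to 14807 against 16459 to 17718 CPM. The monocyte list (10.0 to 13.7 against 6.22 to 7.38 CPM) and the endothelial list (13.2 to 26.2 against 9.54 to 13.1 CPM) were higher. Their part in the differences was not tested. Il1rn differed by 1.92 ± 0.327 (log2, adjusted p = 3.56e-04), with a mean of 9.95 ± 3.51 CPM (SD, n = 4) in AppSAA against 2.93 ± 1.12 CPM in WT and no overlap. Il18 differed by 0.40 ± 0.0919 (adjusted p = 0.00509), also without overlap, and Il1b by 0.83 ± 0.165 (adjusted p = 0.00173), with overlap. Osm differed by 0.44 ± 0.136 (adjusted p = 0.0399). That call was lost without the filter on low counts (0.0533), in cells of 5000 to 25000 UMIs (0.0801), with only these groups fitted (0.102) and without the WT ATV:4D9 mouse of pool 2 (0.148) or 4 (0.0637) or the AppSAA ATV:4D9 mouse of pool 1 (0.0854), 3 (0.143) or 4 (0.0738). Il12b was higher in 4 of 4 pools, by 1.10 to 5.57 times, with overlap and a log2 difference of 1.37 ± 0.543 (adjusted p = 0.119). It passed with limma-voom (adjusted p = 0.0221) and with the pool as a block (1.57 ± 0.314, adjusted p = 8.78e-04), where 31.4% of genes were called. Il6 had 6.97 to 7.62 CPM in AppSAA and 7.70 to 9.30 CPM in WT, lower in 4 of 4 pools without overlap, and did not pass (−0.10, adjusted p = 0.765). The log2 ratio of its mean CPM, without the scaling factors of the fit, was −0.25. Tnf differed by 0.19 (adjusted p = 0.726).

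Whether the response to ATV:4D9 itself differed between genotypes was tested as an interaction. Only Il18 of the 9 genes passed, beside 9.14% of 14058 genes, with a difference between the 2 log2 responses of 0.81 ± 0.131 (adjusted p = 4.84e-04). Its CPM fell in 4 of 4 WT pairs and rose in 4 of 4 AppSAA pairs. With the pool as a block, where 30.5% of genes were called, Tnf passed too, its response being smaller in AppSAA by −0.58 ± 0.208 (adjusted p = 0.043, against −0.56 ± 0.329 and 0.354 without the block). Il1rn gave 1.07 (adjusted p = 0.25) and Il6 0.41 (adjusted p = 0.228).

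A level summed over cells can rise because more cells hold a transcript or because each holds more, so both were measured after thinning every cell to 5000 UMIs. Thinning left out between 2.52% of cells in WT ATV:4D9 and 11% in WT ATV:ISO. A Tnf UMI was found in 28.6% ± 7.78 (SD, n = 4) of cells in WT ATV:ISO, 63.3% ± 7.39 in WT ATV:4D9, 32.2% ± 9.06 in AppSAA ATV:ISO, 32.0% ± 7.96 in AppSAA 4D9 and 58.3% ± 8.96 in AppSAA ATV:4D9. Positive cells also held more: 1.77 ± 0.194 Tnf UMIs in WT ATV:ISO against 5.06 ± 0.832 in WT ATV:4D9, and 2.31 ± 0.201 in AppSAA ATV:ISO against 5.34 ± 0.683 in AppSAA ATV:4D9. Under ATV:ISO, Il1b was found in 16.0% of cells in WT and 22.6% in AppSAA, with overlap of the groups but higher in AppSAA in every pool. Positive cells held 2.92 and 4.38 Il1b UMIs, without overlap. For Il6 the share of cells was 6.23% in WT ATV:ISO and 4.25% in WT ATV:4D9, with 1.11 UMIs per positive cell in both. Without thinning the order turned, at 9.78% of cells in WT ATV:ISO and 11.1% in WT ATV:4D9.

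Il12b was found in 0.0843% of thinned cells in WT ATV:ISO, 1.2% in WT ATV:4D9, 0.13% in AppSAA ATV:ISO, 0.210% in AppSAA 4D9 and 2.19% in AppSAA ATV:4D9, that is in 8, 180, 26, 27 and 337 cells. Il1rn was found in 0.407%, 0.863%, 0.671%, 0.613% and 2.94% of cells in the same order. Free RNA can leave a UMI in a cell that does not express a gene, and the sort left no cell type that should lack these genes. The lowest share among the clusters described next was 23.3% of cells for Tnf, 0.234% for Il1rn and 0.0896% for Il12b, all in cluster 0, whose cells had a median of 7178 UMIs before thinning. Across 54 comparisons of shares, exact two-sided permutation tests of 4 against 4 mice could not go below p = 0.0286, and the lowest p after Benjamini-Hochberg adjustment was 0.0857. For 41 comparisons of UMIs per positive cell the lowest adjusted p was 0.0732. With that floor, any comparison could pass only if most comparisons of its set reached the floor. These tests therefore do not decide whether the shares or the UMIs per positive cell differed.

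**Figure D3:**
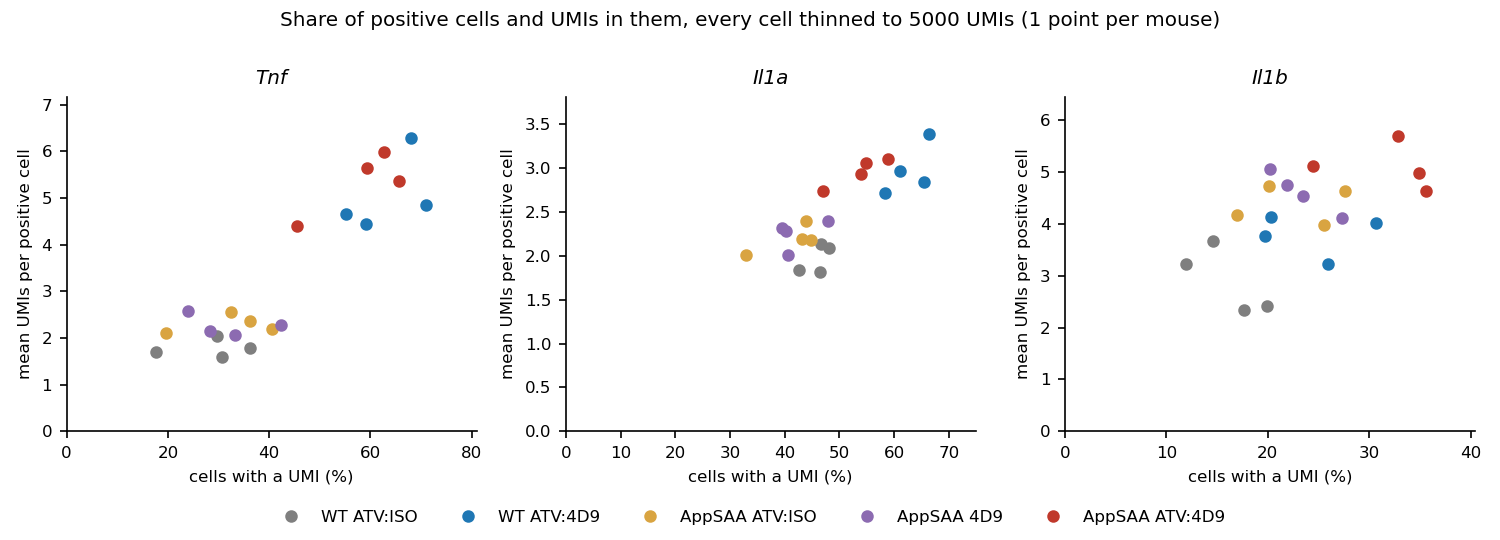
Percent of cells with a UMI of the gene (x axis) against UMIs of the gene per positive cell (y axis), both after thinning to 5000 UMIs per cell. Each point is a mouse, coloured by group, for Tnf, Il1a and Il1b. For Tnf both quantities are higher in ATV:4D9 mice, from a mean of 1.77 to 5.06 UMIs per positive cell in WT.

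The coarser of the deposited clusterings divides the cells into clusters 0 to 5, which were built from expression, so levels between clusters are given as a description with no test. Clusters 0 and 3 held a mean of 60.4% and 35.8% of the cells of WT ATV:ISO mice, and cluster 1 held 38.3% of those of AppSAA ATV:ISO mice. Clusters 2 and 4 held 47.8% and 40.0% of cells in WT ATV:4D9 and 35.4% and 22.4% in AppSAA ATV:4D9. Cluster 5 held 22.4% of cells in AppSAA ATV:4D9, 4.21% in WT ATV:4D9 and at most 2.48% elsewhere. Means below are over mice of a group, where at least 3 of them had 20 cells of the cluster. Tnf was lowest in cluster 0 in every group, at 52.4 to 81.7 CPM. It was highest in cluster 2 in 4 groups, at 578 to 867 CPM, and in cluster 5 in WT ATV:4D9, with 1122 CPM against 800 CPM in cluster 2. Il1a was highest in cluster 3 in 4 groups, at 360 to 736 CPM, while in WT ATV:ISO clusters 2 and 3 had 315 and 312 CPM. Il1b was also lowest in cluster 0 in every group, at 27.8 to 56.3 CPM, but its highest cluster varied. This was cluster 3 in both ATV:4D9 groups (402 CPM in WT and 737 CPM in AppSAA), cluster 2 in AppSAA ATV:ISO and AppSAA 4D9 (316 and 328 CPM) and cluster 1 in WT ATV:ISO (381 CPM). Cluster 5 was measured in every group but WT ATV:ISO. In those 4 groups it had the highest Il18, at 66.1 to 87.6 CPM against 49.8 CPM or less in the other clusters, and the highest Il12b, from 7.60 CPM in AppSAA ATV:ISO, where cluster 4 had 6.87 CPM, to 45.5 CPM in WT ATV:4D9. Il1rn was highest there in 3 groups, at 20.1 to 31.7 CPM, but in AppSAA ATV:ISO it was 7.03 CPM in cluster 5 and 10.4 CPM in cluster 2. Il6 was highest in cluster 5 in the ATV:4D9 groups, with 31.4 CPM in WT and 13.2 CPM in AppSAA, and in cluster 3 in the other 3 groups, at 14.1 to 17.1 CPM. Osm was lowest in cluster 0 in every group, at 12 to 15.9 CPM, and between 24.9 and 47.3 CPM in the others.

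**Figure D4:**
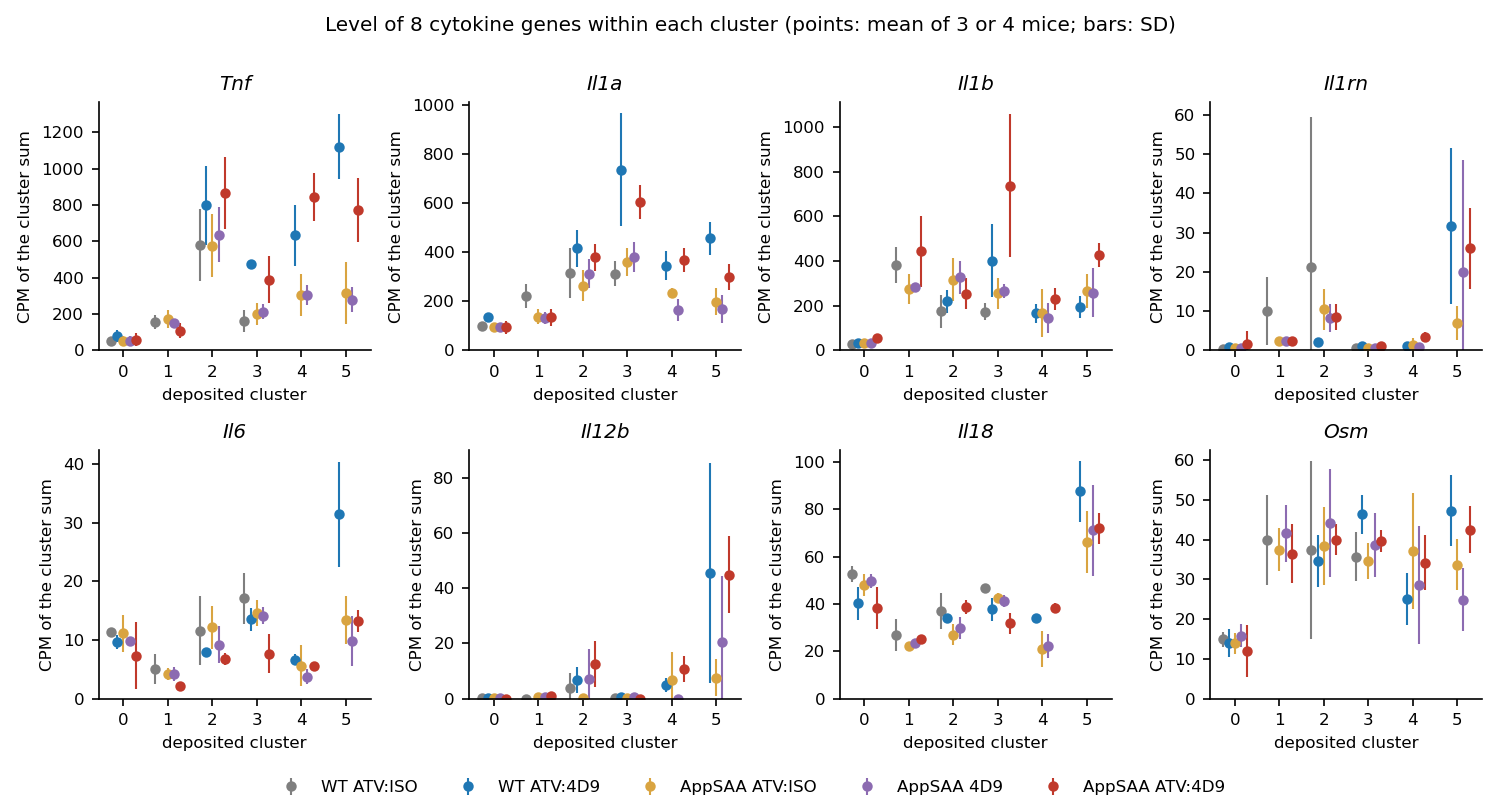
Level of each cytokine gene by deposited cluster (x axis) and group, in CPM of the cluster's sum on linear axes. Points are means over the 3 or 4 mice with at least 20 cells of the cluster and bars the SD. In the 4 groups with cluster 5, Il18 was highest there, at 66.1 to 87.6 CPM.

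Most Il12b and Il1rn of AppSAA ATV:4D9 mice came from cluster 5. This cluster gave 58.1% of their Il12b UMIs, cluster 2 gave 24.4% and cluster 4 16.9%. In WT ATV:4D9 mice the order was different, with 37.8% from cluster 2, 35.0% from cluster 4 and 27.1% from cluster 5. For Il1rn, cluster 5 gave 56.1% of UMIs in AppSAA ATV:4D9 and 45.6% in WT ATV:4D9, while cluster 1 gave 60.1% in AppSAA ATV:ISO. Tnf moved from clusters 3 and 0 (55.6% and 23.6% of UMIs) in WT ATV:ISO to clusters 2 and 4 (51.4% and 39.0%) in WT ATV:4D9, and from clusters 1 and 3 (51.8% and 24.4%) in AppSAA ATV:ISO to clusters 2, 4 and 5 (42.4%, 31.6% and 22.9%) in AppSAA ATV:4D9. Within cluster 5, the Il6 level was 31.4 ± 8.99 CPM in WT ATV:4D9, with a lowest mouse of 22.1 CPM, and 13.2 ± 1.9 CPM in AppSAA ATV:4D9, a pair that was not tested.

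**Figure D5:**
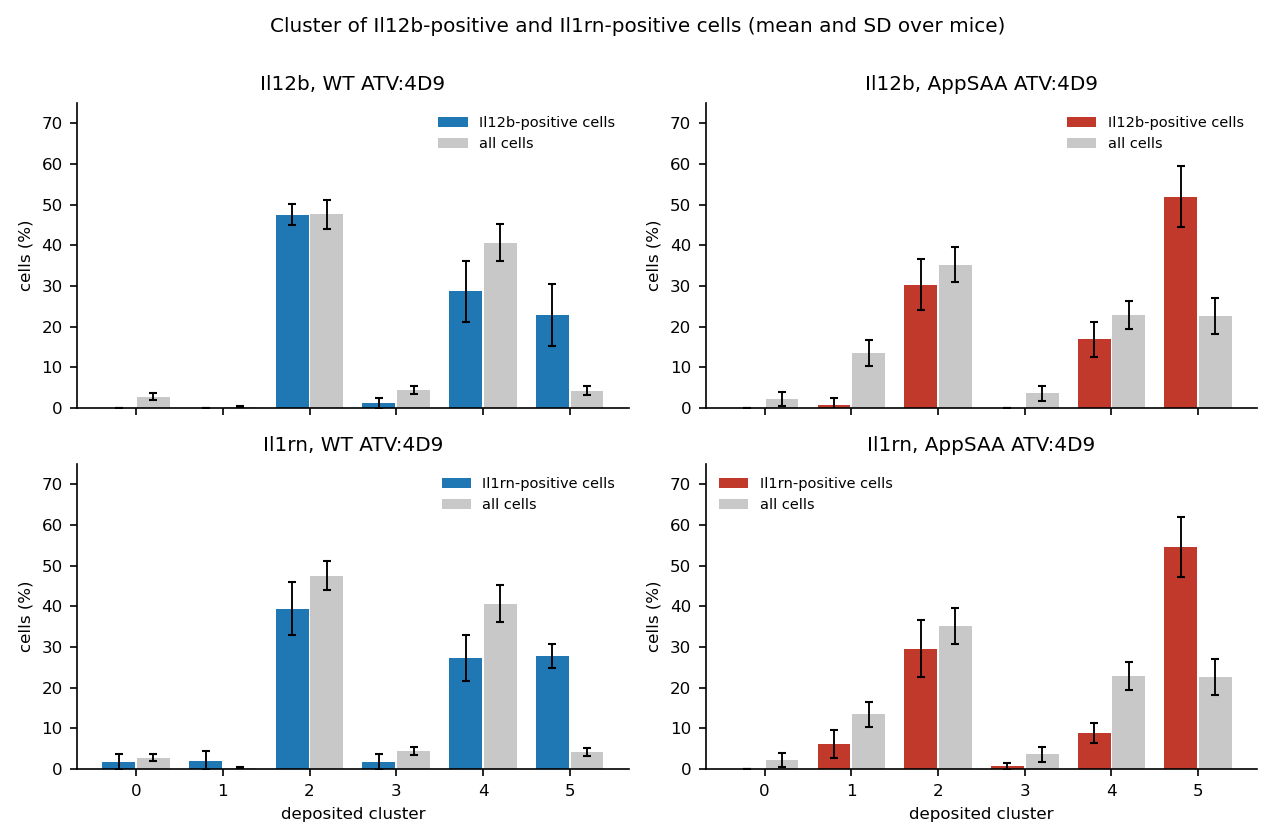
Share of Il12b-positive and Il1rn-positive cells (coloured bars) and of all cells (grey bars) that lay in each deposited cluster (y axis, percent), in the ATV:4D9 groups, as mean and SD over mice after thinning. Cluster 5 held a mean of 51.9% of Il12b-positive cells in AppSAA ATV:4D9, where it held 22.7% of all cells, and 22.8% in WT ATV:4D9, where it held 4.23%.

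Within clusters, ATV:4D9 and ATV:ISO were compared on sums of at least 20 cells per mouse. In WT mice, cluster 3 kept a rise of the TNF and IL-1 genes, with 3 of 6 tested members called beside 6.17% of 11628 genes. Tnf there went from 162 ± 59.3 CPM to 477 ± 19.2 CPM (log2 fold change 1.65 ± 0.248, adjusted p = 1.53e-04), Il1a from a mean of 312 to 736 CPM (1.32 ± 0.166, adjusted p = 1.76e-05) and Il1b from 173 to 402 CPM (1.28 ± 0.252, adjusted p = 0.00214). Osm gave 0.48 (adjusted p = 0.0613), 0.49 (adjusted p = 0.00218) with the pool as a block, and passed without the WT ATV:ISO mouse of pool 4 (0.56, adjusted p = 0.0422). In cluster 0, 1 of 6 tested members was called, beside 1.47% of 11691 genes: Il1a, at 0.52 ± 0.134 (adjusted p = 0.0453). That call was lost with limma-voom (adjusted p = 0.0597) and when any 1 of the 8 WT mice except the ATV:ISO mouse of pool 1 was left out, where adjusted p ran from 0.0577 to 0.18 and the fold from 0.45 to 0.55. Tnf in cluster 0 was 52.4 ± 20.8 CPM and 81.7 ± 32.8 CPM (0.62, adjusted p = 0.53, and 0.68, adjusted p = 1.57e-05, with the pool as a block). In cluster 2, 1 of 8 tested members was called, beside 5.88% of 9618 genes. This was Il1rn, lower by −3.22 ± 0.787 (adjusted p = 0.0148), and it rests on the WT ATV:ISO mouse of pool 2, whose 33 cells held 33 of the group's 36 UMIs. Without that mouse the fold was 0.03 (adjusted p = 0.997), and with limma-voom it was −1.57 (adjusted p = 0.497). Tnf in cluster 2 was 580 ± 198 CPM and 800 ± 218 CPM (0.48, adjusted p = 0.261).

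In AppSAA mice the same comparison called members in clusters 2 to 5. In cluster 5, 5 of 8 tested members rose, beside 27% of 10958 genes. Tnf there went from 316 ± 170 to 775 CPM in mean (1.48 ± 0.248, adjusted p = 1e-04), Il1a by 0.73 ± 0.185 (adjusted p = 0.00479) and Il1b by 0.79 ± 0.215 (adjusted p = 0.00766). Il12b in cluster 5 went from 7.60 ± 6.67 to 44.9 CPM in mean (2.29 ± 0.577, adjusted p = 0.00453, and 3.23 without the AppSAA ATV:ISO mouse of pool 3). Il1rn went from 7.03 ± 4.31 to 25.9 CPM (1.84 ± 0.554, adjusted p = 0.0151), and was lost without the AppSAA ATV:ISO mouse of pool 4 (1.53, adjusted p = 0.0622) or the AppSAA ATV:4D9 mouse of pool 1 (1.44, adjusted p = 0.0528), while its fold was 2.45 without the AppSAA ATV:ISO mouse of pool 3. Osm (0.41, adjusted p = 0.082) and Il18 (0.32, adjusted p = 0.147) did not pass, and did with the pool as a block (adjusted p = 0.0213 and 0.0391). Osm also passed without the AppSAA ATV:4D9 mouse of pool 2 (adjusted p = 0.0364).

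Cluster 4 had 3 of 8 tested members called in AppSAA mice, beside 24.5% of 11342 genes. These were Tnf (1.42 ± 0.206, adjusted p = 1.91e-05), Il1a (0.66 ± 0.149, adjusted p = 0.00227) and Il18, which rose from 20.8 ± 7.64 to 38.5 ± 1.98 CPM (0.77 ± 0.164, adjusted p = 0.00128). The AppSAA ATV:ISO mice had few cells there, 27, 32, 74 and 53 in pools 1 to 4, with 97 Il18 UMIs in all. Cluster 3 had 3 of 6, beside 4.33% of 11628 genes: Tnf (1.10 ± 0.248, adjusted p = 0.00911, and 0.84, adjusted p = 0.0782, without the AppSAA ATV:4D9 mouse of pool 4), Il1a (0.87 ± 0.166, adjusted p = 0.00218) and Il1b (1.66 ± 0.251, adjusted p = 2.31e-04). Cluster 2 had 4 of 8, beside 13.2% of 9618 genes. There Il18 rose (0.59 ± 0.139, adjusted p = 0.00535) and Il6 fell (−0.90 ± 0.215, adjusted p = 0.00603), the latter not without the AppSAA ATV:ISO mouse of pool 3 (−0.75, adjusted p = 0.0885). Il1a rose there too (0.56 ± 0.175, adjusted p = 0.0335). Its call was lost without the AppSAA ATV:ISO mouse of pool 1 (adjusted p = 0.11), 2 (0.0795) or 4 (0.0557) or the AppSAA ATV:4D9 mouse of pool 1 (0.0778), 3 (0.0665) or 4 (0.0722). The fourth, Il12b, passed the filter on low counts only through the groups where it is high, so its call is no support. It had 1 UMI in AppSAA ATV:ISO and 1167 in AppSAA ATV:4D9. The ratio of summed levels was 76.1, with a counting interval of 13.6 to 3007, and its call (adjusted p = 0.0153) was lost with limma-voom (adjusted p = 0.125) and without the AppSAA ATV:ISO mouse of pool 3 (0.0901) or 4 (0.0581). Tnf in cluster 2 gave 0.64 ± 0.231 (adjusted p = 0.0685). It passed with the pool as a block (0.66, adjusted p = 0.0109) and without the AppSAA ATV:4D9 mouse of pool 2 (0.80, adjusted p = 0.0205).

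Clusters 0 and 1 had none of their members called between ATV:4D9 and ATV:ISO in AppSAA mice by edgeR or limma-voom. Beside them, edgeR called 0.667% of 11691 genes and 1.34% of 13045 genes. Those shares are of adjusted calls and do not serve for the 2 and 4 members with an unadjusted p under 0.05. In cluster 1, Tnf was 174 ± 48 and 109 ± 42.8 CPM (−0.63, adjusted p = 0.275), Il6 gave −0.93 (adjusted p = 0.0936) and Il1b 0.75 (adjusted p = 0.0982). With the pool as a block, Tnf (−0.64, adjusted p = 0.00759), Il6 (−0.97, adjusted p = 0.0109), Il1b (0.72, adjusted p = 0.00999) and Il18 (0.24, adjusted p = 0.0324) passed there, as did Il1b in cluster 0 (0.90, adjusted p = 8.49e-05). Il1b in cluster 1 also passed without the AppSAA ATV:4D9 mouse of pool 2 (0.91, adjusted p = 0.0235). The fold of Tnf in cluster 1 and its fold over all cells had opposite signs.

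The genotype comparison under ATV:ISO left few calls within clusters. In clusters 0, 2 and 3, 0 members were called by edgeR or limma-voom, beside 0.274% of 11691, 0.281% of 9618 and 0.189% of 11628 genes by edgeR. Those shares are of adjusted calls and do not serve for the 0, 1 and 1 members with an unadjusted p under 0.05. In cluster 1, 1 of 9 was called, beside 1.23% of 13045 genes: Il1rn, lower in AppSAA by −2.31 ± 0.442 (adjusted p = 0.0099). The WT ATV:ISO mice had few cells there, 31, 62 and 27 in 3 mice with 0, 14 and 7 Il1rn UMIs, and the call was lost without the mouse of pool 2 (−1.66, adjusted p = 0.314) or 4 (−2.24, adjusted p = 0.0751). Il1b, called in the sums over all cells, was called in none of clusters 0 to 3, where its log2 fold change was 0.24 ± 0.195, −0.42 ± 0.245, 0.87 ± 0.268 and 0.57 ± 0.243 (SE, adjusted p = 1.00, 0.559, 0.189 and 1.00). In cluster 2 the AppSAA mice, at 257 to 460 CPM, lay above the WT mice, at 101 to 248 CPM, and in clusters 0, 1 and 3 the groups overlapped.

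Transcripts of the 9 genes were found together in the same thinned cells more or less often, compared within each mouse. In AppSAA ATV:4D9, a Tnf UMI was found in 88.3% ± 3.48 of Il12b-positive cells and 57.6% ± 8.93 of the other cells, higher in 4 of 4 mice. In WT ATV:4D9 the shares were 91.0% ± 6.06 and 65.7% ± 6.14, over the 3 mice with at least 20 positive cells. Il1rn was found in 17.6% ± 4.56 of Il12b-positive and 2.63% ± 0.83 of other AppSAA ATV:4D9 cells, and Il18 in 30.9% and 18.5%. Il1a was found in 63.9% of Tnf-positive and 39.3% of Tnf-negative AppSAA ATV:4D9 cells, and in 53.3% and 43.2% in WT ATV:ISO. For Il1a in Il1rn-positive AppSAA ATV:4D9 cells the order was reversed, at 47.3% against 53.8%, higher in 0 of 4 mice. Il1rn was found in 2.97% of Il1b-positive and 2.96% of Il1b-negative cells of that group. Cells of 1 mouse share their pool and depth, and no test was run over cells.

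The genes whose profile was most like that of each member were found over 23 profiles, each the summed cells of a group within a cluster, which share mice and depth, so the correlations are descriptive. Tnf was most like Odc1 (Pearson r = 0.96), which encodes the first enzyme of polyamine synthesis, and Ifrd1 (0.95). Il1b was most like Pmaip1 (0.97), which encodes a proapoptotic BCL-2 family protein, and Nfkbiz (0.96), an NF-κB cofactor. Osm was most like Ccrl2 (0.96) and Nfkbiz (0.95), and Il1b and Osm were alike (0.91). Il12b was most like Ube2l6 and Cxcl11 (both 0.95), known as interferon-induced genes, and resembled Il1rn (0.84). Il18 was most like Tlr3 (0.96), the receptor for double-stranded RNA, and Il6 was most like Plekhf2 (0.90) and Myd88 (0.88), the adaptor of Toll-like and IL-1 receptors. Il1a was most like Gm14023 (0.97), whose locus overlaps it on the other strand, and Icam1 (0.96).

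Genes that receive, process or answer these cytokines moved in both directions. Among 15 tested genes of the cytokines' receptors, ATV:4D9 in WT mice raised 3 and lowered 7, beside 30.8% of all genes up and 32.5% down. Il18bp, which encodes the secreted IL-18 trap, rose by 0.70 and Il6ra, the IL-6 receptor, fell by 1.43 on the log2 scale. In AppSAA mice, 3 rose and 7 fell, beside 27.9% up and 27.1% down, with Il18bp up by 1.00 and Il6ra down, at −1.0. Il18bp was also higher in AppSAA than in WT under ATV:ISO, by 1.03. Of 14 tested processing and inflammasome genes, 2 rose and 5 fell in WT mice and 6 rose and 2 fell in AppSAA mice. Pycard, the inflammasome adaptor, rose by 0.51 in WT, and P2rx7, the ATP-gated channel that triggers IL-1β release, was lower in WT (−0.89) and AppSAA (−0.46).

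Of 24 tested genes of NF-κB signalling and cytokine feedback, ATV:4D9 raised 8 and lowered 7 in WT mice and raised 12 and lowered 4 in AppSAA mice, beside the same shares of all genes as above (30.8% up and 32.5% down in WT, 27.9% and 27.1% in AppSAA), which hold for the lists that follow too. Socs3 (1.00) and Socs1 (0.94), feedback inhibitors of cytokine receptors, rose in AppSAA mice, and Cebpd fell in both (−1.09 and −0.47). Of 17 immediate early genes, which can rise during dissociation of tissue, 1 rose and 8 fell in WT mice and 0 rose and 8 fell in AppSAA mice, with Klf4 at −1.34 and −1.01. Of 27 tested other cytokines, 9 rose and 10 fell in WT and 8 rose and 8 fell in AppSAA mice. Tnfsf9, the ligand of a costimulatory receptor of T cells, rose by 2.42 and 1.79, and Ltb, lymphotoxin beta, fell (−2.03 and −1.06). None of these lists had a gene called between 4D9 and ATV:ISO.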

How the data were processed

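Sorted brain cells of 20 mice were profiled by single-cell RNA-seq (Chromium 3′ v3.1, CellPlex tags, 4 pools of 5 mice). Per the study's methods the authors aligned reads with Cell Ranger 6.1.1 to mm10 and integrated and clustered cells in Seurat. The deposited values are raw UMI counts per gene and cell, and the authors' filters had left cells of 521 to 59993 UMIs. Samples labelled ATV-DNP02 were taken to be ATV:ISO, an equivalence that the labels leave unstated. The texts differ on the sort (CD45+/CD11b+ or live CD11b+) and on whether hippocampus was included with cortex.

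Counts were summed per mouse, or per mouse and deposited cluster (at least 20 cells), and tested in 1 fit of all 5 groups, or of the groups with such a sum, with edgeR 4.0.16 (R 4.3.3): filterByExpr, TMM factors, the quasi-likelihood test and a threshold of 0.05 on p-values adjusted by Benjamini-Hochberg across the genes tested. Within clusters a comparison was run where both groups had at least 3 mice. Groups with fewer mice stayed in the fit, so in clusters 1 and 5 filterByExpr could pass a gene on 1 mouse. CPM is the count of a gene per 1000000 UMIs of the sum, without TMM factors. Fold changes are log2 values ± SE. The script was tested on simulated data. Alternatives were relative log expression factors, no filter, DESeq2 1.42.0, limma-voom 3.58.1, only the groups compared, the pool as a block, each mouse left out, and cells of 5000 to 25000 UMIs; within clusters, sums of at least 50 or 10 cells. Doublets were not called again. Intervals of shares cover counting error only. The replicate number is the pool in the labels, and same-pool mice deviated together from their group means (40 pairs, correlation 0.227 to 0.709, median 0.544, against −0.659 to 0.410 in 120 pairs of different pools). The members, pathway lists and markers were chosen with earlier results of these data known. Genes named were all members, the called genes of each pathway list with the 2 largest rises and 2 largest falls (mean of at least 5 CPM), and for members of at least 5 CPM the 3 genes most correlated with it in log2(CPM + 1) over sums of at least 200 cells; the text gives a selection of these.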

Additional observations from a re-analysis of the deposited data

Results flagged for a closer look

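Tnf had a mouse apart from the others of its group in 2 of the 45 gene and group combinations tested, a rule that chance meets in about 1 in 20. In AppSAA ATV:ISO the mouse of pool 2 had 99.6 CPM and the others 188 to 206 CPM. In AppSAA 4D9 the mouse of pool 4 had 211 CPM and the others 143 to 154 CPM. Pool 2 had the lowest mean Tnf over the 5 groups, 273 CPM against 389 to 438 CPM in the other pools. Whether the pool accounts for either mouse was not tested.

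The response of Il18 to ATV:4D9 differed between genotypes, by 0.81 on the log2 scale in the interaction test. Its CPM was lower after ATV:4D9 in 4 of 4 WT pairs and higher in 4 of 4 AppSAA pairs. Per cell its mean was higher in both genotypes, 615 against 425 UMIs per 1000 cells in WT and 754 against 377 in AppSAA.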

How the results depend on the processing

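Over all alternatives, 48 of 49 counts of called members per comparison stayed within 1.5 times the main count. The exception was the interaction, with 2 members called when the pool was a replicate block. Within clusters the total was 3 with limma-voom and 9 with sums of at least 10 cells for WT ATV:4D9 against ATV:ISO, 0 with sums of at least 50 cells for AppSAA against WT, and 23 with the pool as a replicate block for AppSAA ATV:4D9 against ATV:ISO. Leaving out each mouse, these ran from 3 to 5, from 0 to 1 and from 13 to 18. Counted per cell, the log2 ratio of WT ATV:4D9 to WT ATV:ISO turned to 0.33 for Il6 and 0.54 for Il18. Shares of cells depended on depth. Of 90 shares taken without thinning or at 2500 UMIs, 77 moved by at least the SD of the mice. Il1rn in AppSAA ATV:4D9 was found in 6.83% of cells without thinning and 1.67% at 2500 UMIs, against 2.94%. Folds that passed in no setting changed sign: Il1rn for 4D9 against ATV:ISO (−0.0512 in cells of 5000 to 25000 UMIs), and Il6 for ATV:4D9 against 4D9 (0.0156 without the filter, 0.0161 with limma-voom and 0.00412 with only these groups). Leaving out each mouse, the fold for 4D9 against ATV:ISO ran from −0.24 to 0.0179 for Tnf, −0.0855 to 0.11 for Il1a, −0.0369 to 0.20 for Il1b, −0.10 to 0.16 for Il1rn and −0.36 to 1.06 for Il12b. Il6 for ATV:4D9 against 4D9 ran from −0.10 to 0.10, Il1a between genotypes under ATV:4D9 from −0.15 to 0.0363, the Il12b interaction from −0.11 to 1.09 and Il1rn in cluster 2 of WT mice from −3.78 to 0.0278.

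With the pool as a block, all genes called went from 3960 to 7166 for AppSAA against WT under ATV:ISO, from 1661 to 4409 under ATV:4D9 and from 1285 to 4284 for the interaction, and without the AppSAA ATV:4D9 mouse of pool 3 from 1661 to 1103. Within clusters the block moved the genes called for WT ATV:4D9 against ATV:ISO from 172 to 1048 in cluster 0, 566 to 1056 in cluster 2 and 717 to 2040 in cluster 3. For AppSAA against WT under ATV:ISO it moved them from 32 to 539, 160 to 347, 27 to 128 and 22 to 191 in clusters 0 to 3, and for AppSAA ATV:4D9 against ATV:ISO from 78 to 616, 175 to 946, 1269 to 2390 and 504 to 1461. limma-voom called 781 in cluster 1 and 10 in cluster 2 for AppSAA against WT, and 268 in cluster 2 for WT ATV:4D9. With 1 mouse left out, the lowest counts were 72, 341 and 468 for WT ATV:4D9 in clusters 0, 2 and 3, then 18, 70, 6 and 6 for AppSAA against WT in clusters 0 to 3, and 19, 628, 311 and 1678 for AppSAA ATV:4D9 in clusters 0, 2, 3 and 5. Calls of members that the block changed stand beside their results, and it changed no other. Il10, Il12b and Il1rn are limited by depth, with 354, 7090 and 4527 UMIs in all. Sums within clusters 1, 2 and 5 of WT ATV:ISO and within cluster 4 of AppSAA ATV:ISO are limited by few cells. The cause of these changes was not tested.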
